A study of Papio hamadryas with 11 samples.

Results

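The proteasome genes examined here are the subunits of the 20S core, the 19S regulatory particle and the alternative activators, together with the factors that help to assemble them. The module names 47 genes, of which 43 had a probe on the array and 39 were measured. A gene was measured when a probe annotated to its symbol had a detection p under 0.05 on at least 5 of the 11 arrays, and the kept probe with the highest mean stood for the gene. These 39 genes are 39 of the 10173 features tested in the series. No probe was listed for PSMA7, PSMC5, PSMD7 and PSMD13, and PSMB9, PSMC3, PSMF1 and PSMG3 had a probe that did not pass. The measured members comprised 6 of 7 alpha-ring subunits, 7 of 7 constitutive beta-ring subunits, 2 of 3 immunoproteasome beta subunits, 4 of 6 ATPases and 10 of 12 non-ATPase subunits of the 19S particle, 4 of 5 activators and inhibitors, and 6 of 7 assembly factors.

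The proteasome degrades proteins that carry ubiquitin chains. The 19S particle binds the chain, removes it and unfolds the substrate, and the alpha ring admits it to the core, where subunits of the beta ring cut it. Interferon induces replacement beta subunits and an activator that favour the cutting of peptides for MHC class I molecules, and dedicated chaperones build the rings in order. In liver the system removes misfolded and short-lived proteins, among them enzymes and apolipoproteins that are not exported.

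Total RNA from the livers of 11 baboon fetuses (Papio hamadryas) was hybridised to human Illumina expression arrays, 1 array per fetus. The fetuses were 165 days old, at 0.9 of gestation. Of these, 5 were fetuses of obese mothers (arrays MO1 to MO5) and 6 of control mothers (arrays CON1 to CON6). MO1 to MO3 and CON1 to CON3 came from females, and MO4, MO5 and CON4 to CON6 from males. The array names place MO1 to MO5, CON5 and CON6 on slide 2, and CON1 to CON4 on slide 1. The labels do not say how obesity was induced or whether any fetuses shared a mother. Slide 1 held no maternal obese array, so among females the condition and the slide cannot be told apart.

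Median intensities were 69.68 to 80.28 on slide 2 and 62.0 to 65.58 on slide 1, and 20.8% (MO4) to 26.8% (CON4) of 48803 probes were detected per array. Of 11 hepatocyte markers listed, 9 were measured, and all 9 were detected on every array. Human probes can bind baboon RNA less well, so levels of different probes are not set against each other. Values are normalised log2 intensities, SD describes how far the arrays of 1 group spread, SE is limma's moderated standard error, and p-values measure the spread between these samples only. The number of arrays limits the precision. In bulk liver, fewer cells of a type and less RNA per cell cannot be told apart.

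**Figure D1:**
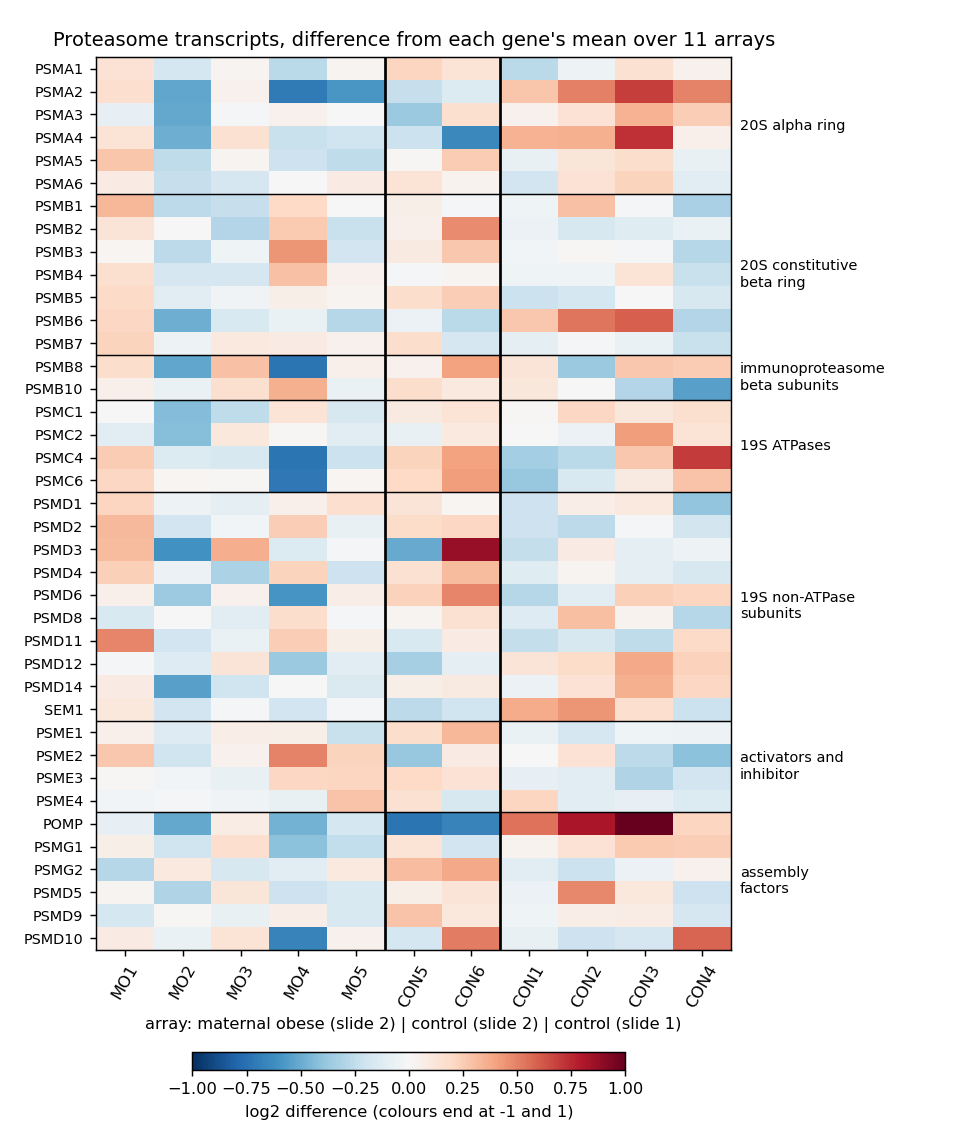
Difference of each of the 39 measured members (rows, by role) from its own mean over the 11 arrays (columns: maternal obese on slide 2, control on slide 2, control on slide 1), as a log2 colour scale that ends at -1 and 1. POMP, PSMA2 and PSMA4 are mostly red on the slide 1 controls, and MO2 is blue in 35 of 39 rows.

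Of the 39 measured members, 36 were detected on all 11 arrays. PSMB8 was not detected on MO2, MO4 and CON2, PSMC4 was not detected on MO4, and PSME3 was not detected on MO3, CON2 and CON3. PSMB9, the interferon-induced replacement for PSMB6, was detected on 0 of 5 maternal obese arrays and on 3 of 6 control arrays (CON1, CON4 and CON6). Its signals were 5.12, 4.88, 5.25, 4.83 and 5.28 on MO1 to MO5, against 5.50, 5.33, 5.13, 5.29, 5.12 and 5.50 on CON1 to CON6. These ranges overlap and lie near the detection limit, so no fold is given. PSMG3, an assembly chaperone of the alpha ring, was likewise detected on 0 of 5 maternal obese arrays and on 3 of 6 control arrays (CON2, CON3 and CON6), with signals of 4.82 to 5.26 on the maternal obese and 5.08 to 5.94 on the control arrays. These ranges overlap as well, and no fold is given. PSMC3, an ATPase, and PSMF1, an inhibitor, were not detected on any array.

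The first comparison asked how proteasome transcripts differed between fetal livers of obese and control mothers. No member passed the threshold of an adjusted p of 0.05 (0 of 39), and 0% of the 10173 features passed it. The smallest adjusted p of a member was 0.348 (limma, Benjamini-Hochberg over all features). 28 of 39 members (71.8%) had a difference below 0, against 41.3% of all features. The median difference was -0.11 on the log2 scale for the members and 0.05 for all features. At an unadjusted p under 0.05, 3 members were lower and 0 were higher in maternal obese livers. The same limit took 3.91% of all features as lower, 9% as higher and 12.9% in either direction, so the members' share of lower values is 3 of 39 against a background of 3.91%. No member separated the maternal obese from the control arrays without overlap, which 1.43% of all features did (1.19% higher and 0.236% lower).

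The split depended on how arrays were scaled. When each array was scaled to a common median in place of quantile normalisation, the median of all features moved to -0.13, from 0.05, and 36 of 39 members lay below 0. Relative to all features, the members' median was -0.20 with median scaling, -0.17 with cyclic loess and -0.16 with quantile normalisation. By role, the medians with median scaling were -0.41 in the alpha ring, -0.20 in the constitutive beta ring, -0.24 in the immunoproteasome subunits, -0.45 in the ATPases, -0.28 in the non-ATPase subunits (9 of 10 below 0), -0.07 in the activators and -0.36 in the assembly factors. 0 members passed the threshold under any of 26 other settings.

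**Figure D2:**
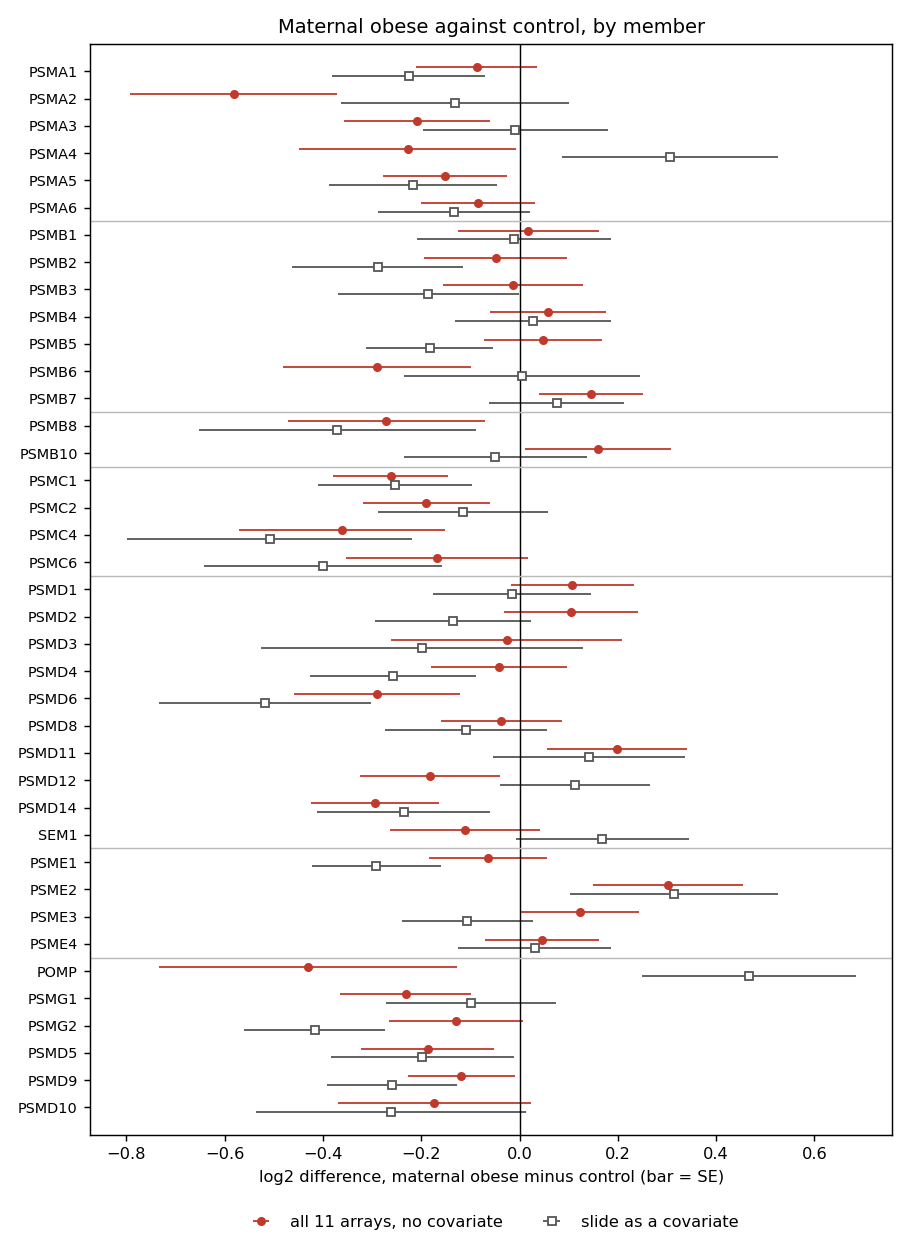
Maternal obese minus control difference (log2, point) with its SE (bar) for each of the 39 measured members, grouped by role, filled circles without a covariate and open squares with slide as a covariate. In the filled circles all 6 alpha-ring subunits, 4 ATPases and 6 assembly factors lie left of 0, while PSME2 lies farthest right at 0.30.

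In the 20S alpha ring, whose subunits form the outer gate of the core, all 6 measured members lay below 0, with a median difference of -0.18, and 0 passed the test. PSMA2 had the smallest p of the module. Its log2 values were 7.93, 7.24, 7.80, 7.06 and 7.18 on MO1 to MO5, against 8.03, 8.26, 8.45, 8.25, 7.53 and 7.62 on CON1 to CON6. MO2, MO4 and MO5 lay below every control array, and MO1 and MO3 lay between CON6 and CON1. PSMA2 averaged 7.44 ± 0.40 in maternal obese livers (SD, n = 5) and 8.02 ± 0.37 in controls (SD, n = 6). The difference of -0.58 (SE 0.21) is a level of 0.668 times that of controls, with a limma adjusted p = 0.348. The other 5 ran from -0.23 for PSMA4 and -0.21 for PSMA3 through -0.15 for PSMA5 to -0.09 for PSMA1 and -0.08 for PSMA6.

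With slide as a covariate, the estimate rests on the 5 maternal obese arrays against CON5 and CON6. Both of these controls were male while MO1 to MO3 were female, so every slide-adjusted difference mixes condition with sex. In this fit PSMA2 stood at -0.13 (SE 0.23) and PSMA4 turned to 0.31 (SE 0.22). PSMA1 stood at -0.23 and PSMA5 at -0.22 in that fit, and 5 of the 6 alpha-ring members lay below 0. The low control values of PSMA2 were those of CON5 and CON6, the controls hybridised on the same slide as the maternal obese livers.

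The 7 constitutive beta-ring subunits had a median difference of 0.02, with 3 of 7 below 0, and 0 passed the test. With median scaling all 7 lay below 0. PSMB5, the chymotrypsin-like subunit, had 10.14, 9.84, 9.92, 10.01 and 9.98 on MO1 to MO5, against 9.74, 9.78, 9.96, 9.79, 10.13 and 10.20 on CON1 to CON6. The maternal obese values lay within the control range, and the highest control values were those of CON5 and CON6. PSMB5 differed by 0.05 (SE 0.12), PSMB7, the trypsin-like subunit, by 0.14 (SE 0.11) and PSMB6, the caspase-like subunit, by -0.29 (SE 0.19). With slide as a covariate PSMB5 turned to -0.18 (SE 0.13), PSMB7 stood at 0.08 (SE 0.14) and PSMB6 at 0.00 (SE 0.24). The structural subunits PSMB1, PSMB2, PSMB3 and PSMB4 lay between -0.05 and 0.06.

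Of the immunoproteasome subunits, which replace the catalytic subunits under interferon, PSMB8 and PSMB10 were measured. PSMB8, the replacement for PSMB5, had 5.87, 5.17, 5.98, 4.96 and 5.75 on MO1 to MO5, against 5.83, 5.33, 5.96, 5.95, 5.74 and 6.09 on CON1 to CON6. The lowest values were those of MO4, MO2 and CON2, the arrays on which it was not detected, and the groups overlapped. PSMB8 averaged 5.55 ± 0.45 in maternal obese livers (SD, n = 5) and 5.82 ± 0.27 in controls (SD, n = 6), a difference of -0.27 (SE 0.20, limma adjusted p = 0.540). PSMB10, the replacement for PSMB7, had 10.36, 10.24, 10.47, 10.66 and 10.24 on MO1 to MO5, against 10.42, 10.31, 10.01, 9.77, 10.48 and 10.41 on CON1 to CON6. MO4 was the highest array and CON4 the lowest, and the difference was 0.16 (SE 0.15). It turned to -0.05 (SE 0.19) with slide as a covariate, and with median scaling both immunoproteasome subunits lay below 0.

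To set each replacement against the subunit it replaces, the difference of each gene from its own mean over the arrays was taken first. PSMB8 minus PSMB5 then averaged -0.17 ± 0.43 in maternal obese livers (SD, n = 5) and 0.14 ± 0.25 in controls (SD, n = 6). PSMB10 minus PSMB7 averaged 0.01 ± 0.17 in maternal obese livers (SD, n = 5) and -0.01 ± 0.23 in controls (SD, n = 6). The gap for PSMB8 was larger than the SD in controls and smaller than the SD in maternal obese livers, where MO2 and MO4, on which PSMB8 was not detected, were the lowest arrays. The gap for PSMB10 was smaller than either SD.

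All 4 measured ATPases of the 19S particle, which unfold the substrate and open the gate of the core, lay below 0, with a median of -0.23, and 0 passed the test. PSMC1 had 10.65, 10.22, 10.40, 10.79 and 10.49 on MO1 to MO5, against 10.66, 10.86, 10.77, 10.82, 10.74 and 10.79 on CON1 to CON6. The 6 controls lay close together, and 4 of the 5 maternal obese arrays lay below all of them, with MO4 inside their range. PSMC1 averaged 10.51 ± 0.22 in maternal obese livers (SD, n = 5) and 10.77 ± 0.07 in controls (SD, n = 6). Its difference was -0.26 (SE 0.12, limma adjusted p = 0.376), or -0.25 (SE 0.16) once slide was a covariate. PSMC4 differed by -0.36 (SE 0.21), PSMC2 by -0.19 (SE 0.13) and PSMC6 by -0.17 (SE 0.18). With slide as a covariate all 4 ATPases again lay below 0, with a median of -0.33.

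The 10 measured non-ATPase subunits of the 19S particle had a median of -0.04, with 7 of 10 below 0. PSMD14 is the deubiquitinase that removes the ubiquitin chain before the substrate enters the core. It had 7.95, 7.32, 7.66, 7.87 and 7.71 on MO1 to MO5, against 7.80, 8.01, 8.22, 8.07, 7.92 and 7.95 on CON1 to CON6. MO2, MO3 and MO5 lay below every control, while MO1 and MO4 lay inside the control range. PSMD14 averaged 7.70 ± 0.24 in maternal obese livers (SD, n = 5) and 7.99 ± 0.14 in controls (SD, n = 6), a difference of -0.29 (SE 0.13, limma adjusted p = 0.374). With slide as a covariate the difference was -0.24 (SE 0.18).

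PSMD4, a ubiquitin receptor, differed by -0.04, and the scaffold subunits PSMD1 and PSMD2 differed by 0.11 and 0.10. Among the subunits of the lid, PSMD6 stood at -0.29, PSMD12 at -0.18, PSMD8 at -0.04, PSMD3 at -0.03 and PSMD11 at 0.20. SEM1, the smallest lid protein, differed by -0.11. With slide as a covariate PSMD6 moved to -0.52 (SE 0.22, limma adjusted p = 0.617), although its second probe stood at -0.01 in the same fit, while SEM1 turned to 0.17 and PSMD12 to 0.11.

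Of the 4 measured activators 1 lay below 0, with a median of 0.08, which turned to -0.07 with median scaling, and 0 passed the test. PSME2, a subunit of the interferon-induced PA28 cap, had 9.52, 9.05, 9.30, 9.75 and 9.48 on MO1 to MO5, against 9.25, 9.40, 9.0, 8.85, 8.87 and 9.34 on CON1 to CON6. MO1, MO4 and MO5 lay above every control, and MO2 and MO3 lay inside the control range. PSME2 averaged 9.42 ± 0.26 in maternal obese livers (SD, n = 5) and 9.12 ± 0.24 in controls (SD, n = 6), a level 1.23 times that of controls. The difference was 0.30 (SE 0.15, limma adjusted p = 0.399), or 0.31 (SE 0.21) once slide was a covariate.

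PSME1, the partner of PSME2 in the cap, had 10.73, 10.55, 10.74, 10.74 and 10.46 on MO1 to MO5, against 10.61, 10.51, 10.64, 10.63, 10.86 and 11.01 on CON1 to CON6. All 5 maternal obese arrays lay below CON5 and CON6 and overlapped the slide 1 controls. Its difference was -0.06 (SE 0.12), and -0.29 (SE 0.13, limma adjusted p = 0.640) with slide as a covariate. PSME3, the nuclear activator, differed by 0.12 (SE 0.12) and PSME4, an activator that acts on acetylated histones, by 0.05 (SE 0.12).

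All 6 measured assembly factors lay below 0, with a median of -0.18, and 0 passed the test. POMP, the short-lived factor that brings the beta subunits onto the alpha ring, had 8.43, 8.0, 8.59, 8.05 and 8.34 on MO1 to MO5, against 9.06, 9.33, 9.51, 8.73, 7.78 and 7.85 on CON1 to CON6. The 5 maternal obese arrays lay between the slide 2 controls below them and the slide 1 controls above them. POMP averaged 8.28 ± 0.25 in maternal obese livers (SD, n = 5) and 8.71 ± 0.74 in controls (SD, n = 6). Its difference was -0.43 (SE 0.30, limma adjusted p = 0.517) over all arrays and 0.47 (SE 0.22, limma adjusted p = 0.658) with slide as a covariate.

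PSMG1 and PSMG2 form a heterodimer that assembles the alpha ring, and differed by -0.23 (SE 0.13) and -0.13 (SE 0.14). PSMD5, PSMD9 and PSMD10 are chaperones of the ATPase ring and differed by -0.19, -0.12 and -0.17. With slide as a covariate PSMG2 stood at -0.42 (SE 0.14, limma adjusted p = 0.579).

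**Figure D3:**
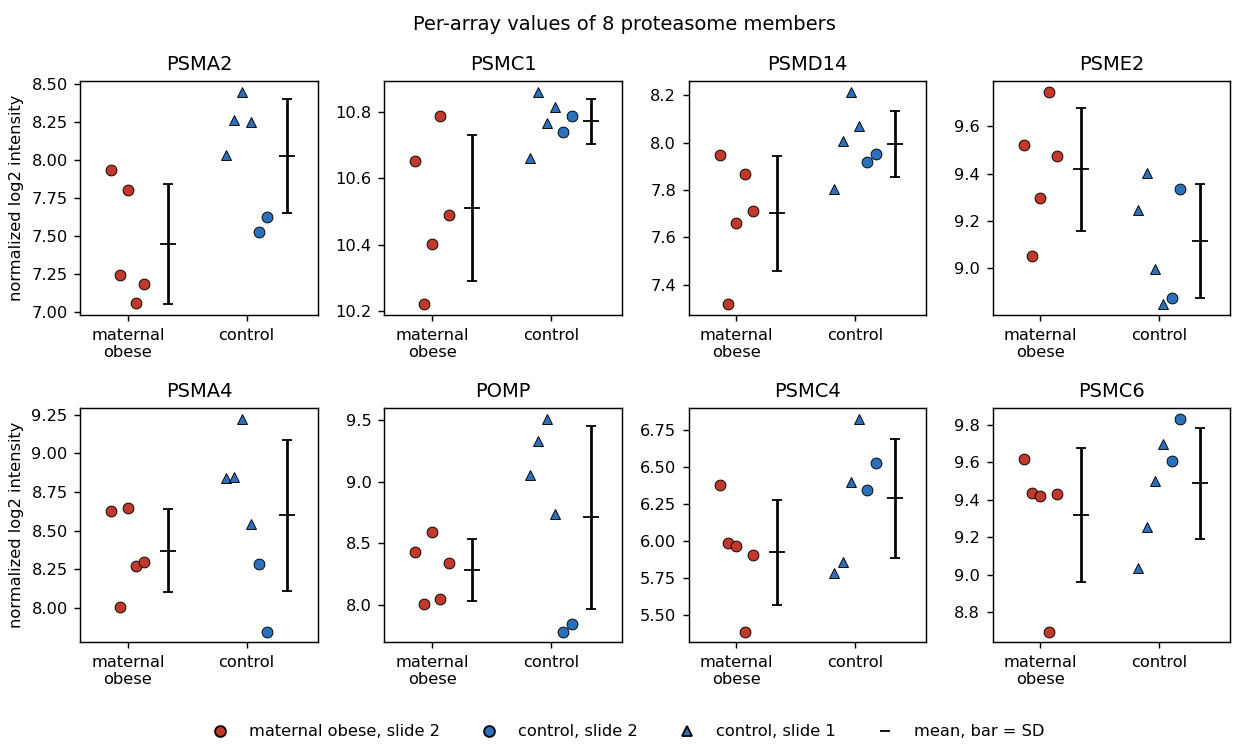
Normalised log2 values of 8 members on every array (point), with the group mean and SD (bar), maternal obese left of control; circles are slide 2 and triangles slide 1. PSMA2 and POMP show the 2 slide 2 controls apart from the 4 slide 1 controls, while PSMC1 shows controls close together above 4 of 5 maternal obese arrays.

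More than 1 kept probe was available for 9 members, and in all 9 the probes gave the same sign for maternal obese against control. The second probe of PSMD6 gave -0.47 where the first gave -0.29, and the second probe of PSMA6 gave -0.43 where the first gave -0.08. The 2 probes of PSMC1 gave -0.26 and -0.24, and the 3 probes of PSMC4 gave -0.36, -0.51 and -0.43. The probes of PSMC4 were close to each other, each detected on 4 of 5 maternal obese arrays.

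In the fit that included slide as a covariate, 0 of 39 members passed the threshold (background 0.00983% of features), 29 of 39 lay below 0, against 49.8% of all features, and the members' median was -0.13, against 0.00 for all features. At an unadjusted p under 0.05, 3 members were lower and 0 higher, against 3.01% and 4.73% of features (7.74% in either direction). These were PSMD6 (on the probe used, its second probe being at -0.01), PSME1 and PSMG2, none of which was among the 3 with the smallest p over all arrays. Between the maternal obese arrays and CON5 and CON6, SEM1 and POMP were higher without overlap and PSMD6, PSME1, PSMG2 and PSMD9 were lower without overlap. This is 6 of 39, against 13.8% of all features, 7.61% higher and 6.16% lower. Both the fit and this count set maternal obese arrays of both sexes against male controls, so they mix condition with sex.

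The second comparison asked which members differed between the slides, with condition as a covariate. It rests on the controls CON5 and CON6 against CON1 to CON4. CON5 and CON6 were male and 3 of the 4 slide 1 controls were female, so the comparison mixes slide with sex. POMP and PSMA4 fell on slide 2, and no member rose (2 of 39 called, against 8.35% of all features, 5.43% lower and 2.92% higher). POMP was 1.35 lower on the log2 scale, with a difference of -1.35 (SE 0.22, limma adjusted p = 0.00623), and slide 1 was 2.54-fold higher. Its values on CON5 and CON6, 7.78 and 7.85, lay below the lowest slide 1 control, CON4, at 8.73.

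PSMA4 had 8.28 and 7.85 on CON5 and CON6, against 8.84, 8.85, 9.22 and 8.55 on CON1 to CON4. On the maternal obese arrays it had 8.63, 8.01, 8.64, 8.27 and 8.30. Both slide 2 controls lay below all 4 slide 1 controls, and MO1 and MO3 lay above CON4. Its difference between slides was -0.80 (SE 0.23, limma adjusted p = 0.0499), and its second probe gave -0.42. POMP lost its call when CON5 (adjusted p = 0.0525) or CON6 (adjusted p = 0.0713) was left out, with sex as a covariate (adjusted p = 0.0561), and over male controls only, where it stood at -0.92 (adjusted p = 0.268). PSMA4 kept its call in 6 of 22 other settings, and stood at -0.61 with sex as a covariate and -0.48 over male controls only. It lost it with each of CON1, CON2, CON3, CON5, CON6, MO1, MO3, MO4 and MO5 left out. When CON4 was left out, SEM1 passed as the third member.

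**Figure D4:**
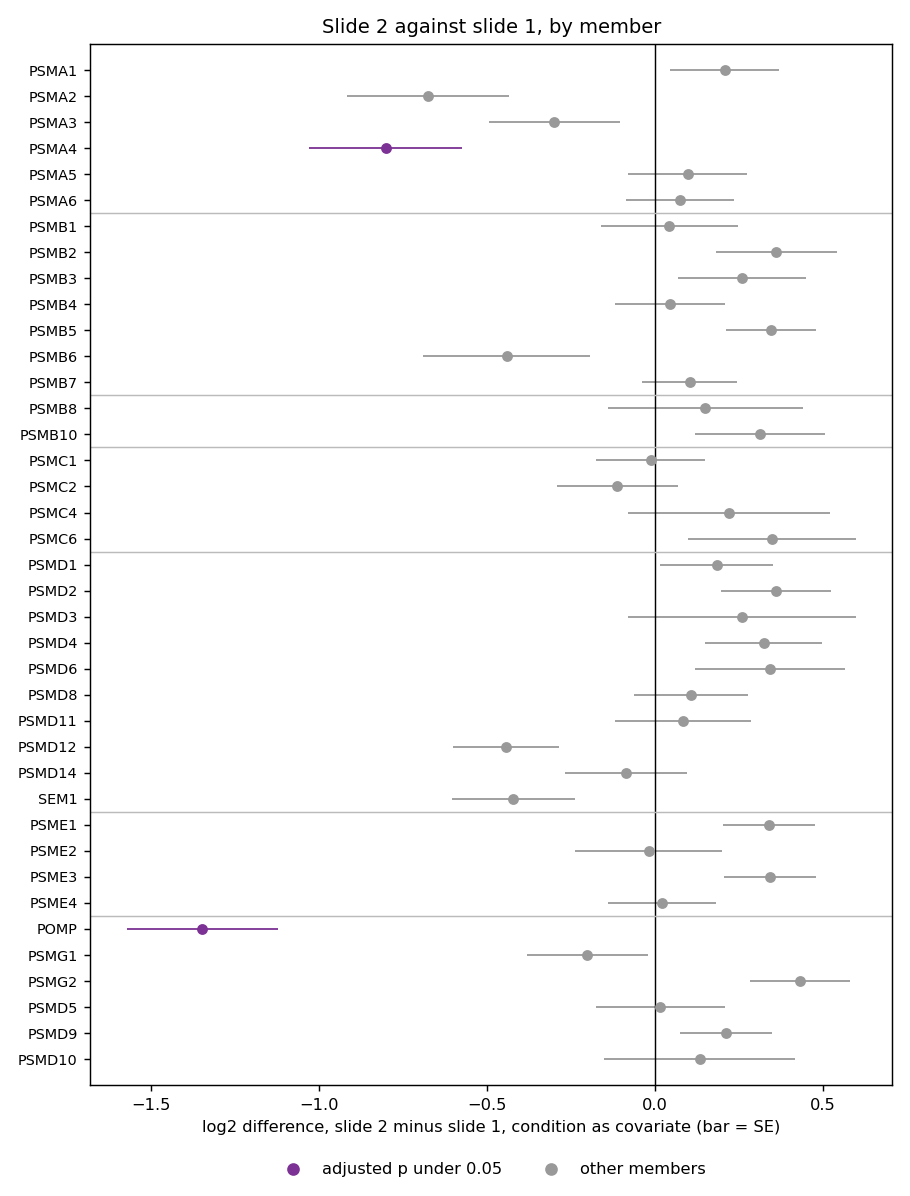
Slide 2 minus slide 1 difference (log2, point) with its SE (bar) for each of the 39 measured members, condition as a covariate, coloured where the adjusted p is under 0.05. POMP at -1.35 and PSMA4 at -0.80 are the coloured points, and 27 of 39 members lie right of 0.

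At an unadjusted p under 0.05, 5 members were higher on slide 2 (15.7% of all features were) and 5 were lower (11.4% of all features were). The higher ones were PSMG2 at 0.43, PSMD2 at 0.36, PSMB5 at 0.35, PSME1 at 0.34 and PSME3 at 0.34. The lower ones, beside POMP and PSMA4, were PSMA2 at -0.68, PSMD12 at -0.44 and SEM1 at -0.42. The members' median was 0.10, against 0.11 for all features, and 12 of 39 (30.8%) lay below 0, against 38.7% of all features. With median scaling 18 of 39 lay below 0, and the members' median was 0.01, while with cyclic loess it was 0.03. Over all arrays PSME3 was higher on slide 2 without overlap, and PSMA2 and POMP were lower without overlap (3 of 39, against 13% of all features, 8.18% higher and 4.8% lower). Among controls alone 9 members were higher and 4 lower on slide 2 without overlap, against 22.3% and 13.8% of all features (36.2% in either direction). By role, the medians ran from -0.11 in the alpha ring to 0.23 in the immunoproteasome subunits. Probes of 1 gene gave the same sign between slides for 6 of 9 members. PSMD6 was split, at 0.34 on the probe used and -0.70 on the second.

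Cell type markers were compared between the slides in the same fit, where 8.35% of all features passed. Of 9 measured hepatocyte markers, 7 lay below 0 on slide 2, and 2 passed: FGB, a fibrinogen chain, at -1.39 (limma adjusted p = 0.00507) and APOA2, an apolipoprotein, at -1.18 (limma adjusted p = 0.0137). The mean of the hepatocyte markers, each relative to its own mean, ran from -0.38 to 0.21 on slide 2 and from -0.16 to 0.48 on slide 1. Of 14 macrophage markers 10 lay above 0, with a median of 0.20, and 1 passed, CD68, which was lower at -1.19 (limma adjusted p = 0.0443). All 6 erythroid markers lay above 0, with a median of 0.73 and a highest value of 1.53, as did all 6 neutrophil markers, with a median of 0.14, and 0 of either passed. The part of these markers in the values of POMP and PSMA4 was not tested.

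In females against males, with condition as a covariate, 0 of 39 members passed (background 0.0491% of features, 0.0197% higher and 0.0295% lower; limma, smallest member adjusted p = 0.352). At an unadjusted p under 0.05, 5 members were higher in females and 0 were lower, against 7.32% and 3.52% of all features. These were POMP at 0.72, PSMA2 at 0.49, PSMA4 at 0.48, PSMB6 at 0.39 and SEM1 at 0.34. SEM1 had 10.81, 10.52 and 10.69 in maternal obese females and 11.08, 11.15 and 10.87 in control females. In males it had 10.52 and 10.69 under maternal obesity and 10.49, 10.44 and 10.51 in controls. The 3 control females, all on slide 1, were the highest arrays, and the other arrays overlapped between the sexes.

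The maternal obese difference was also taken within each sex. Within females, 3 arrays against 3, 0 members passed (0% of features), and 5 were lower at an unadjusted p under 0.05, against 7.37% of all features. These were POMP at -0.96, PSMB6 at -0.61, PSMA2 at -0.59, PSMA4 at -0.54 and SEM1 at -0.36. Within males, 2 arrays against 3, 0 members passed (0% of features), with 5 lower and 1 higher at an unadjusted p under 0.05, against 3.83% and 5.10% of all features (8.94% in either direction). The lower ones were PSMC4 at -0.92, PSMA2 at -0.68, PSMC6 at -0.65, PSMD10 at -0.62 and PSMD6 at -0.57, and the higher one was PSME2 at 0.59. For each of the lower ones MO4 lay below MO5. PSMC6 was 8.70 on MO4 and 9.43 on MO5, PSMD10 6.02 and 6.74, and PSMD6 7.74 and 8.40. PSMC4 was 5.39 on MO4, where it was not detected, and 5.91 on MO5. PSMD10 on MO5 lay inside the range of the control males. PSMA2 was the 1 member on both lists. The female contrast sets slide 2 against slide 1. Among control males PSMA2 was 8.25 on CON4, on slide 1, against 7.53 and 7.62 on CON5 and CON6, on slide 2. With slide as a covariate, over both sexes, PSMA2 stood at -0.13 (SE 0.23).

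**Figure D5:**
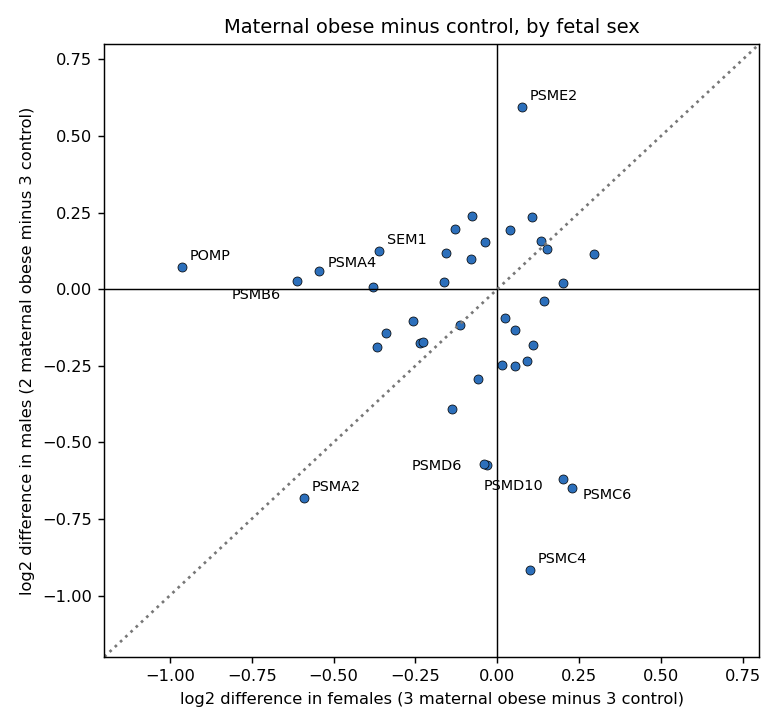
Maternal obese minus control difference (log2) in females (horizontal axis, 3 against 3 arrays) and in males (vertical axis, 2 against 3 arrays) for the 39 measured members; the dotted line marks equal differences. POMP lies at -0.96 and 0.07, and PSMC4 at 0.10 and -0.92, while PSMA2 lies near the line.

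Whether the difference itself differed between the sexes was tested as an interaction, and 0 of 39 members passed (0% of features; limma, smallest member adjusted p = 0.592). In females the maternal obese and control arrays lay on different slides, while in males most arrays shared a slide. The fit had no slide term, so the interaction mixes sex with slide. At an unadjusted p under 0.05, 3 members had a larger value in females and 3 a smaller one, against 3.06% and 4.23% of all features (7.28% in either direction). PSMC4 differed by 1.02 (SE 0.34). It had 6.38, 5.99 and 5.97 in maternal obese females and 5.78, 5.86 and 6.40 in control females, which overlap. In males it had 5.39 and 5.91 under maternal obesity and 6.82, 6.34 and 6.53 in controls, with no overlap and with MO4 not detected.

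PSMC6 differed by 0.88 (SE 0.30). It had 9.62, 9.43 and 9.42 in maternal obese females and 9.03, 9.26 and 9.50 in control females, and 8.70 and 9.43 in maternal obese males and 9.70, 9.61 and 9.83 in control males. MO4 was the lowest of all arrays. PSMD10 differed by 0.82 (SE 0.35), and on the other side POMP by -1.03 (SE 0.39), PSMB6 by -0.64 (SE 0.29) and SEM1 by -0.48 (SE 0.22). For POMP, PSMB6 and SEM1 the 3 highest of the 11 arrays were the control females CON1 to CON3, all on slide 1.

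Over the whole module, the mean of the members relative to their own means was 0.11, -0.22, -0.02, -0.08 and -0.06 on MO1 to MO5, against -0.03, 0.07, 0.13, -0.01, 0.01 and 0.12 on CON1 to CON6. MO2 stood below every other array and was below the gene mean for 35 of 39 members, and MO1 lay among the highest controls. MO2 was the lowest array for 9 members, MO4 and CON4 for 8 members each, while CON3 was the highest for 10 and CON6 for 9. MO2 also stood apart in the 8 measured stellate and fibroblast markers, at 2.52, against -0.84 to 0.56 on the other arrays. All 8 of these markers lay above 0 in maternal obese against control livers with MO2 included, where 5972 of 10173 features lay above 0. Within males, a comparison without MO2, 4 of the 8 lay above 0. Of 14 macrophage markers 13 lay below 0, against 41.3% of all features. The macrophage mean ran from -0.45 to 0.10 in maternal obese livers and from -0.29 to 0.62 in controls. Without MO2, 26 of 39 members lay below 0, with a median of -0.08, and the part of the other markers was not tested.

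As a description, the members' values were correlated over the 11 arrays, which share slide and sample. The median Pearson r over 741 pairs of members was 0.159, against 0.0192 over all pairs of features. Within the constitutive beta ring it was 0.451 (21 pairs) and within the alpha ring 0.395 (15 pairs), while among assembly factors it was -0.01 (15 pairs). On the 7 arrays of slide 2 the values were 0.53, 0.306 and 0.145. The 2 measured immunoproteasome subunits had an r of -0.364.

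Genes that work with the proteasome were described from 2 lists. The first held 33 genes of ubiquitin supply, ubiquitin receptors and regulators of the proteasome, of which 23 were measured. In maternal obese livers 13 of the 23 lay below 0, against 41.3% of all features. Their median was -0.10, against 0.05 for all features, and 0 passed. USP14, a deubiquitinase bound to the 19S particle, was the 1 gene of 23 at an unadjusted p under 0.05. The same limit took 3.91% of all features as lower and 12.9% in either direction. USP14 differed by -0.37 (SE 0.16, limma adjusted p = 0.371). It had 6.75, 6.73, 6.93, 6.22 and 6.85 on MO1 to MO5, against 6.70, 6.90, 7.10, 7.43, 7.01 and 7.22 on CON1 to CON6. MO4 was lowest and CON4 highest, and the groups overlapped. NFE2L1 and NFE2L2, transcription factors that induce proteasome genes, differed by -0.10 (SE 0.13) and -0.28 (SE 0.13). Between slides UBQLN2, which shuttles ubiquitinated proteins to the proteasome, fell by 0.98 (limma adjusted p = 0.0159). It was the 1 of 23 that passed, against 8.35% of all features (5.43% lower).

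Of 23 genes of MHC class I presentation and its interferon control, 12 were measured. In maternal obese livers 9 of the 12 lay above 0, where 5972 of 10173 features did. Their median was 0.08, against 0.05 for all features, and 0 passed. TAP1, a subunit of the peptide transporter, differed by 0.13 (SE 0.15), B2M, the light chain of class I molecules, by -0.11 (SE 0.17) and CALR, a chaperone of peptide loading, by 0.30 (SE 0.18). HLA-F had the smallest p, at -0.86 (SE 0.36, limma adjusted p = 0.362). It stood at -0.28 with slide as a covariate, and at -0.88 between slides. HLA-G went the other way, at 0.82 (SE 0.56) in maternal obese livers. It had 9.05, 6.08, 5.78, 8.94 and 6.30 on MO1 to MO5, against 6.03 to 6.88 on the control arrays. Only MO1 and MO4 lay above the controls, and MO3 lay below all of them. Human HLA probes may bind several baboon class I transcripts.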

How the data were processed

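Liver RNA from 11 fetuses was measured on 1 array each. The authors deposited a linear probe intensity and a detection p-value per probe and array, per the file headers, and a table of log2 values, which the authors made as the log2 of those intensities (largest difference 5e-09), neither background-corrected nor normalised. GenomeStudio and Partek are named per the submitters' processing notes, with roles and versions not given in the sources used here. 0 columns lacked a sample.

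From the intensities, limma 3.58.1 (R 4.3.3) neqc applied normexp background correction (negative controls inferred from detection p, offset 16) and quantile normalisation. Kept probes (11475 of 48803) had a detection p under 0.05 on 5 or more arrays. In the platform annotation 28098 probes had 1 symbol and 13 had several, while 20692 were not listed. The kept probe with the highest mean stood for a symbol, which left 10173 features, 8043 of them named. Tests were limma's lmFit and eBayes over all features, Benjamini-Hochberg adjusted, threshold 0.05. Slide was read from the array name prefix. The limma tests were tried on simulated data over 10173 features, with independent normal noise for each gene. For maternal obese against control they recovered 81% of changes of 1 and 97% of changes of 2 on the log2 scale. Between slides they recovered 55% and 95%. False calls numbered 8 for maternal obese against control and 5 between slides. The simulated data for maternal obese against control held no slide difference and no correlation between genes. The members' own differences in that comparison ran from -0.58 to 0.30, and changes of that size were not simulated. Background correction, normalisation, the detection filter and the choice of probe come before these features and were not tested.

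The members, lists and settings were chosen with earlier results of these data known. Values on every array are given for members at an unadjusted p under 0.05 in maternal obese against control, past the threshold between slides, the 3 with the smallest p for sex and for its interaction, and always PSMB5, PSMB8, PSMB9, PSMB10, PSME1, PSME2 and POMP. The genes named from the other lists and markers (USP14, UBQLN2, HLA-F, FGB, APOA2, CD68 and the like) were chosen after their values were seen. Alternatives were other scalings, background correction, offset, filters, the mean of a gene's probes, slide and sex terms, array weights and leaving out each array. No gene coordinates or sequences were used here.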

Additional observations from a re-analysis of the deposited data

Results flagged for a closer look

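5 of 78 groups of values (6.41%) held a lone array farther from the nearest other array than Dixon's 95% limit allows, where chance gives about 5%. PSMC6 was 8.70 on MO4, with the next maternal obese array at 9.42, and PSMD10 was 6.02 on MO4, with the next at 6.62. PSMA3 was 8.62 on MO2, with the next maternal obese array at 9.05. PSME4 was 8.90 on MO5, with the next maternal obese array at 8.59. PSMB2 was 9.97 on CON6, with the next control at 9.55.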

How the results depend on the processing

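For maternal obese against control, 0 members passed under any of the 26 other settings, and the smallest adjusted p of a member was 0.153 (limma). 15 of 39 members kept the sign of their difference in all 26, and PSMB8 and PSMC4 in the 25 in which they were measured. The median difference of -0.11 moved to -0.32 with median scaling and was -0.14 to -0.08 with 1 array left out, and 24 to 36 members lay below 0. The 3 members at an unadjusted p under 0.05 became 13 with median scaling, where 10% of all features were lower at that limit, 0 with slide as a random block or with slide and sex as covariates, 1 with sex as a covariate, and 1 to 5 with 1 array left out (5 without CON1, and 1 without CON3, CON4 or MO5). Features past the threshold reached 7 with array weights. Between slides, the 2 members that passed became 1 with median scaling, without a filter, with probes detected on all arrays, with the mean of a gene's probes and over control arrays only, 0 with sex as a covariate or over male controls only, and 0 to 3 with 1 array left out. The 849 features past the threshold between slides became 361 over control arrays, 116 with sex as a covariate and 0 over male controls, and 44 to 945 with 1 array left out. The members' slide median of 0.10 was 0.20 over male controls, 0.01 with median scaling, 0.03 with cyclic loess and 0.04 to 0.17 with 1 array left out. The cause was not tested, although the fits over controls or male controls hold fewer arrays. For female against male and for the interaction, 0 members passed in all 20 other settings, with up to 14 features past the threshold for the interaction (without CON4). Leaving out MO2 with slide as a covariate was chosen after seeing the data and left the median at -0.08. No paired analysis was possible because no label links a maternal obese fetus to a control fetus. Signal near background limits PSMB8, PSMB9, PSMC4, PSME3 and PSMG3.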
